A study of Mus musculus with 20 samples.

Results

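The nuclear genes that encode subunits of the 5 complexes of oxidative phosphorylation were followed in RNA-Seq of mouse retinas. Members were taken by name, as every gene whose symbol begins with Nduf and a letter of the a, b, c, s or v series and a digit, with Uqcr, with Cox and a digit from 4 to 8 or with Atp5, together with Sdha, Sdhb, Sdhc, Sdhd and Cyc1. This found 88 genes, 41 of complex I, 4 of complex II, 9 of complex III, 17 of complex IV and 17 of complex V, among the 19368 genes listed for the oxygen-induced retinopathy (OIR) experiment and the 19102 listed for the Ceapin-A7 experiment. The rule itself uses names and no measured value. The tables use older symbols for complex V, such as Atp5a1 and Atp5b for the alpha and beta subunits.

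Complexes I to IV pass electrons from NADH and succinate to oxygen, and all of them but complex II pump protons across the inner mitochondrial membrane, and complex V uses the proton gradient to make ATP. The subunits come from nuclear genes and, for every complex but complex II, also from mitochondrial DNA. In the retina, mitochondria are densely packed in the inner segments of photoreceptors, which use much of the tissue's oxygen. Several subunits have alternative isoforms, some of which are known from hypoxic cells, pericytes or striated muscle.

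Each of the 4 groups held 5 libraries of whole retina. In the OIR experiment, Atf6+/+ pups (labelled WT) and Atf6-/- pups (labelled Atf6 knockout), of both sexes and on a C57BL/6J background, were kept in 75% oxygen from postnatal day (P) 7 to P12 and in room air for 5 days, and were sampled at P17. In the second experiment, P30 Atf6+/+ mice received 1 uL of 10 uM Ceapin-A7, an inhibitor of Atf6, or saline with dimethyl sulfoxide (labelled PBS) in both eyes and were sampled 24 h later. The study's methods give more dimethyl sulfoxide in the control solution than in the Ceapin-A7 solution, while the labels give 1 range for both, so the control may not match the solvent of the drug. The Atf6-/- allele is a premature stop codon and is present in every cell type, and all mice, including controls, had either been through OIR or had both eyes injected. Atf6 itself did not separate the groups, at 14.9 ± 0.62 FPKM in Atf6+/+ OIR and 15.2 ± 1.5 in Atf6-/- OIR (SD, n = 5 each; limma adjusted p = 0.827), and at 16.3 ± 0.98 and 16.4 ± 0.60 in PBS and Ceapin-A7 retinas (limma adjusted p = 0.949), so the amount of its RNA does not check the genotype labels. No mitochondrially encoded subunit was among the genes analysed here.

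Values are FPKM, fragments per kilobase of transcript, scaled to the mapped fragments of the library, which can be compared between genes because they are per length. Fold changes are differences of log2(FPKM + 0.1) after each library was rescaled, tested with limma across all genes with a mean FPKM above 0.1. That filter kept 86 members in the OIR experiment and 87 in the Ceapin-A7 experiment. Ndufs6b, listed at 0 in 18 libraries, failed in both, and Cox7b2, a testis isoform of complex IV, failed in the OIR experiment. A gene is called at a Benjamini-Hochberg adjusted p under 0.05, and counts with an unadjusted p of at most 0.05 stand beside it. The labels do not say that each library came from a separate animal, so p-values measure the spread between these libraries, which may be technical in part.

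The members were among the abundant transcripts of the retina and summed to 3.02% of all FPKM in Atf6+/+ OIR, 3.23% in Atf6-/- OIR, 3.58% in PBS and 3.91% in Ceapin-A7 libraries. Over all 20 libraries, rescaled together, the median member of complex I stood at 98.4 FPKM, of complex II at 77.9, of complex III at 120, of complex IV at 147 and of complex V at 268. The highest member of each complex was Ndufa4 (554 FPKM), Sdha (112), Uqcrh (297), Cox8a (605) and Atp5b (631). Ndufa4 is now known to sit in complex IV although its name places it in complex I. By name, it and its relative Ndufa4l2 are counted in complex I throughout, in the sums, medians and counts of that complex. Sdha is the flavoprotein that oxidises succinate, Uqcrh is the hinge protein of complex III, and Atp5b is the catalytic subunit of ATP synthase. The lowest were Ndufs6b (0.018), Sdhd (39.3), Uqcrq (53.3), Cox7b2 (0.089) and Atp5g1 (134), so complexes II, III and V held no member near the filter.

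Promoter sequence is shown for 4 members. Of these, 2 stood apart between groups in different experiments, Cox5a in OIR only and Ndufa9 after Ceapin-A7 only. The others are the common and muscle isoforms Cox8a and Cox8b. All 4 were chosen after their values were seen and because the 250 bases upstream of their starts hold 0 annotated exon bases. Sequences are from RefSeq on GRCm38.p6, 5′ to 3′ on the strand of the gene, and capitals mark a match to a searched motif.
Ndufa9, chr6:126849145-126849394, minus strand: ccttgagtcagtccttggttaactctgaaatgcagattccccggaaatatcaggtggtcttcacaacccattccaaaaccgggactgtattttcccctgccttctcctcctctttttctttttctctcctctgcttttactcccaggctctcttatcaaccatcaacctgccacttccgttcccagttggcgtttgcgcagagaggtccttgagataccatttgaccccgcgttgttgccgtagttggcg
Cox5a, chr9:57520982-57521231, plus strand: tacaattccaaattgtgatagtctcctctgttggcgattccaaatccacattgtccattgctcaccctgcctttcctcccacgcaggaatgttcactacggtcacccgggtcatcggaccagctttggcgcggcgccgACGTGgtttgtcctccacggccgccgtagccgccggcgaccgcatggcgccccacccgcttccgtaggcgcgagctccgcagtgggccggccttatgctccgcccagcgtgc
Cox8a, chr19:7217617-7217866, minus strand: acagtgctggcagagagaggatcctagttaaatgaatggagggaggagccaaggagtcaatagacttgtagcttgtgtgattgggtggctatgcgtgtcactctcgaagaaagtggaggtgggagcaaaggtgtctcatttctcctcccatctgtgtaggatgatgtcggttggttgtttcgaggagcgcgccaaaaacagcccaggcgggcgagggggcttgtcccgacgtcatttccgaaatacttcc
Cox8b, chr7:140900447-140900696, minus strand: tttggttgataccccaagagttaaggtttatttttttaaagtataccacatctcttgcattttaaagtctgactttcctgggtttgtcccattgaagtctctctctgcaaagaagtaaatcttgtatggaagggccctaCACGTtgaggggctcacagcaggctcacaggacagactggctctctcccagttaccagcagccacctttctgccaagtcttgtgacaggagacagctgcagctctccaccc

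The capitals in Cox5a and Cox8b are each a match to ACGTG, the core of the hypoxia response element, and Ndufa9 and Cox8a held none of the searched motifs in these bases. RefSeq windows of 250 bases before and 50 after the start were found for 70 of the 88 members, and the first window was used where a gene had several. The NRF1 motif, bound by a regulator of mitochondrial genes, was found on either strand in 16 of the 70 (22.9%), against 7.46% of 15435 genes. The ETS motif CCGGAAG, bound by GABPA, stood in 16 members (22.9% against 13.4%), and ACGTG in 18 (25.7% against 22.4%). AAGATGGCG, the YY1 motif, stood in 6 members (8.57% against 2.2%), but in 0 of the 70 members (and 0.79% of genes) when the search was limited to the 250 upstream bases. The other motifs had 12, 11 and 15 members in that shorter search, for NRF1, ETS and ACGTG. In the longer windows Ndufa9 held 1 YY1 match, Cox8a 2 ETS matches, Cox5a 1 ACGTG match and Cox8b 2. These matches describe letters and were not tested.

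The first comparison asked how subunit transcripts differed between Atf6-/- and Atf6+/+ retinas after OIR. Most members lay slightly higher in Atf6-/- OIR, with the largest median difference in complex IV, but none passed the test after adjustment. Of 86 members, 0 were called, against 5 of 15704 genes (0.0318%). At an unadjusted p of at most 0.05, 14 members were higher (16.3%, against 6.94% of all genes) and 1 was lower (against 5.81%). The median log2 fold change was 0.12 over the members and 0.0028 over all genes, and 75 of 86 members lay above 0, against 50.7% of all genes. When limma weighted each library by its quality, 28 of 86 members and 2769 of 15704 genes were called. At an unadjusted p of at most 0.05 that fit held 55.8% of the members, 45 higher and 3 lower, and 36.6% of all genes. On FPKM as deposited, without weights or rescaling, the share was 11.6% of the members and 12.1% of all genes. In the unweighted fit of rescaled values, log2 fold changes ran from -0.41 (Ndufa4l2) to 1.14 (Ndufb4b, a copy at or near 0 FPKM). Across all genes the OIR log2 fold change was lower at higher GC content (Spearman -0.48, a description, since genes are not independent). Median GC content was 50.4% for members and 50.0% for all genes. With a GC correction, 22.1% of members and 10.3% of all genes had an unadjusted p of at most 0.05. The part of GC content in single members' differences was not tested.

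The sum over the 88 members, in rescaled FPKM, was 12372, 11827, 12939, 14783 and 12852 in the 5 Atf6+/+ OIR libraries and 13867, 15703, 13755, 13821 and 13157 in the 5 Atf6-/- OIR libraries. Atf6+/+ replicate 4 lay above 4 of the 5 Atf6-/- libraries, so the groups overlapped, and the means differed by 8.54%. The sum differed most for complex IV, by 12.5%, from 3185 ± 330 to 3583 ± 265 (SD, n = 5 each). For complexes I, III and V the difference was 7.17%, 7.36% and 7.62%, and for complex II 2.60%. By complex, I to V, the medians of the log2 fold change were 0.10, 0.046, 0.12, 0.19 and 0.10.

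**Figure D1:**
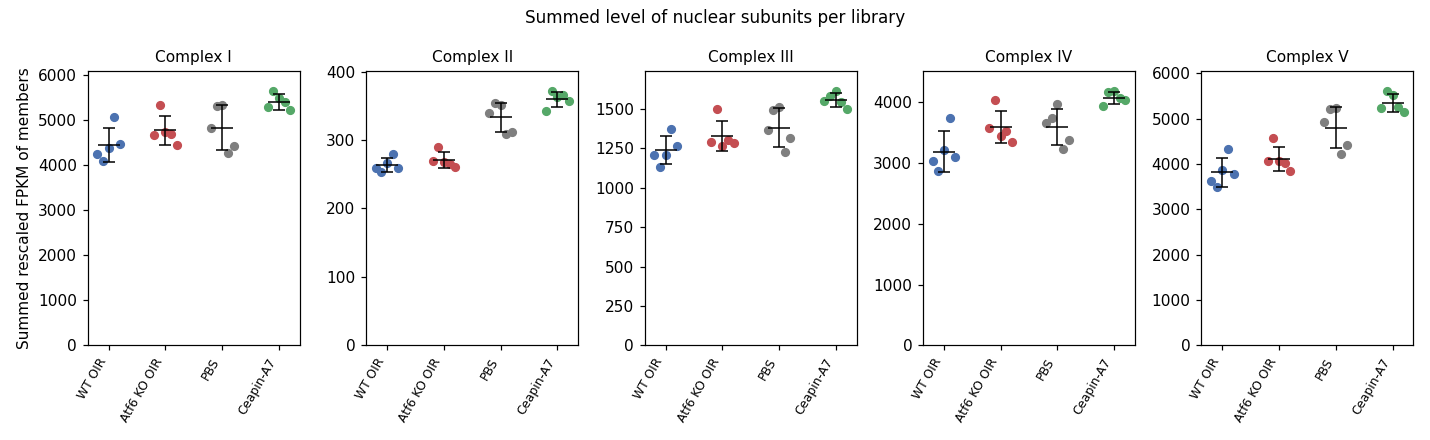
Summed level of the members of each complex in every library (y axis, rescaled FPKM, from 0; each experiment rescaled on its own), with the 4 groups on the x axis (Atf6+/+ OIR as WT OIR, Atf6-/- OIR as Atf6 KO OIR). Points are libraries and bars the mean ± SD of 5. PBS replicates 4 and 5 lie below the other 3 PBS libraries in every complex, and Atf6-/- replicate 2 lies highest in its group.

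Complex I had 5 members with an unadjusted p of at most 0.05, all higher: Ndufb4c, Ndufa5, Ndufa4, Ndufb4 and Ndufa12. Ndufa5, an accessory subunit of the arm that reaches into the matrix, measured 71.2, 74.4, 88.7, 94.0 and 88.5 FPKM in Atf6+/+ OIR and 87.8, 112, 105, 103 and 82.7 in Atf6-/- OIR. Atf6+/+ replicates 1 and 2 were the lowest 2 of the 10, and the rest overlapped. Its log2 fold change was 0.25 (SE 0.088; limma adjusted p = 0.362). Ndufs1 and Ndufv1, subunits of the catalytic core, had log2 fold changes of 0.15 and 0.15, near the 0.14 of Ndufa12, but neither reached an unadjusted p of 0.05.

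The copies of Ndufb4 need care, since Ndufb4, Ndufb4b and Ndufb4c are near-identical and the authors' counting could split their reads. Ndufb4 measured 177 ± 20.7 and 207 ± 32.7 FPKM in Atf6+/+ and Atf6-/- OIR, Ndufb4c 40.8 ± 3.4 and 48.5 ± 3.6, and Ndufb4b was listed at 0 in all but 2 of these libraries. Both abundant copies had log2 fold changes above 0, at 0.23 and 0.27.

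Complex II, which has only nuclear subunits, showed the smallest difference. Its 4 members had log2 fold changes of 0.043 (Sdha), 0.049 (Sdhb, an iron-sulfur protein), -0.031 (Sdhc) and 0.15 (Sdhd, a membrane anchor as is Sdhc), and 0 of 4 reached an unadjusted p of 0.05. In complex III, 8 of 9 members lay above 0 and 0 reached that threshold. Uqcrfs1, the Rieske iron-sulfur protein, was at 42.9 ± 3.9 FPKM in Atf6+/+ and 47.5 ± 5.5 in Atf6-/- OIR, and Uqcrc1, a core protein, went the other way at 132 ± 13.5 and 120 ± 14.2. Cyc1, the cytochrome that passes electrons to cytochrome c, differed by 0.062.

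Complex IV held 7 members higher and 1 lower with an unadjusted p of at most 0.05, of 16 tested. Cox5a was the only member of any complex whose groups did not overlap, 1 of 86 tested. That share is near the 1.11% of all genes that were higher without overlap. None of the members was lower without overlap, against 0.694% of all genes. Cox5a measured 89.6, 89.1, 103, 102 and 92.2 FPKM in Atf6+/+ OIR and 106, 118, 106, 108 and 104 in Atf6-/- OIR. The gap was narrow, with the highest Atf6+/+ library at 103.46 and the lowest Atf6-/- library at 104.1. The log2 fold change was 0.21 (SE 0.054; limma adjusted p = 0.358), and the exact permutation p was 0.00794, the smallest that 5 against 5 libraries can give. The other members with an unadjusted limma p of at most 0.05 had larger permutation p-values. These were 0.0238 to 0.0476 for Ndufb4c, Ndufa12, Cox7c, Cox7a1, Cox4i2, Atp5o and Atp5l. For Ndufa5, Ndufa4, Ndufb4, Cox8b, Cox8a, Cox7b and Cox6b1 the exact permutation p was above 0.05, at 0.0556 to 0.119.

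Cox7c, a small structural subunit, measured 236.8, 222.1, 249.5, 307.4 and 228.2 FPKM in Atf6+/+ OIR and 311, 386, 280, 320 and 278 in Atf6-/- OIR. Only Atf6+/+ replicate 4 reached into the Atf6-/- range. Its log2 fold change was 0.36 (SE 0.096; limma adjusted p = 0.358). Cox8a, Cox7b and Cox6b1 were the other common-form subunits at that threshold, with log2 fold changes of 0.23, 0.18 and 0.20. Cox4i1, Cox5b and Cox6a1 had 0.10, 0.089 and 0.12 and did not reach it.

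The alternative isoforms, which by name belong to complexes I and IV, went in different directions. Cox4i2, the form of subunit 4 known from hypoxic cells and pericytes, was lower, at 90.4, 85.1, 83.7, 92.1 and 75.1 FPKM in Atf6+/+ OIR and 70.3, 66.2, 63.8, 61.7 and 84.5 in Atf6-/- OIR. Atf6-/- replicate 5 lay within the Atf6+/+ range and the other 4 lay below it. The log2 fold change was -0.29 (SE 0.097; limma adjusted p = 0.362). Ndufa4l2, a hypoxia-induced relative of Ndufa4, measured 144, 105, 101, 94.5 and 101 FPKM in Atf6+/+ OIR and 55.7, 73.2, 100.2, 65.8 and 125 in Atf6-/- OIR. Its 2 groups overlapped through Atf6-/- replicates 3 and 5, and the log2 fold change of -0.41 (SE 0.21) did not reach an unadjusted p of 0.05.

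Mural cell markers lay lower in Atf6-/- OIR, as did these isoforms, and other vascular and blood markers lay lower too. Cox4i2 and Ndufa4l2 are known to be strong in pericytes, and in bulk tissue fewer cells of a type and less RNA per cell cannot be told apart. The summed level of 8 of 8 mural markers, among them Pdgfrb, Kcnj8 and Rgs5, was 106 to 153 in Atf6+/+ OIR and 87.1 to 115 in Atf6-/- OIR. None of the 8 was at 0 in any library, and their median log2 fold change was -0.40. Of the 8, 3 (37.5%) were lower with an unadjusted p of at most 0.05, against 5.81% of all genes. Atf6-/- replicate 5, the highest Atf6-/- library for both isoforms, also had the highest mural sum of its group. Atf6+/+ replicate 5 was lowest of its group for both Cox4i2 and the mural sum. Other libraries did not keep this order. Atf6-/- replicate 1 had the lowest mural sum (87.1) but more Cox4i2 than Atf6-/- replicates 2, 3 and 4. Atf6+/+ replicate 4 had the most Cox4i2 of its group, but a mural sum of 119, under Atf6+/+ replicates 1, 2 and 3. Of 6 endothelial markers, 5 lay below 0 in OIR (median log2 fold change -0.20), with sums of 73.8 to 131 in Atf6+/+ and 77.7 to 113 in Atf6-/- OIR. Of the 6, 1 (16.7%) was lower with an unadjusted p of at most 0.05. All 5 erythroid markers lay below 0 (median -0.51, 0 at that threshold), with sums of 385 to 2404 and 412 to 1332, and none of either list was at 0. The part of mural, endothelial and blood cells in the 2 isoforms' differences was not tested.

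The striated-muscle isoforms Cox8b and Cox7a1 were low in level and higher in Atf6-/- OIR with an unadjusted p of at most 0.05. Cox8b measured 1.76, 1.96, 2.61, 10.14 and 6.25 FPKM in Atf6+/+ OIR and 5.73, 9.66, 8.0, 5.79 and 7.78 in Atf6-/- OIR, with a log2 fold change of 1.01 (SE 0.41; limma adjusted p = 0.366). Atf6+/+ replicate 4 exceeded every Atf6-/- library. Cox7a1 measured 6.64 ± 1.03 and 8.62 ± 1.11 FPKM, a log2 fold change of 0.39 (SE 0.11; limma adjusted p = 0.358). Cox6a2 stayed between 0.19 and 1.81 FPKM. The 12 skeletal muscle markers summed to at most 18.1 in any OIR library, with the highest value in Atf6+/+ replicate 3, and all 9 that were tested had log2 fold changes below 0.

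**Figure D2:**
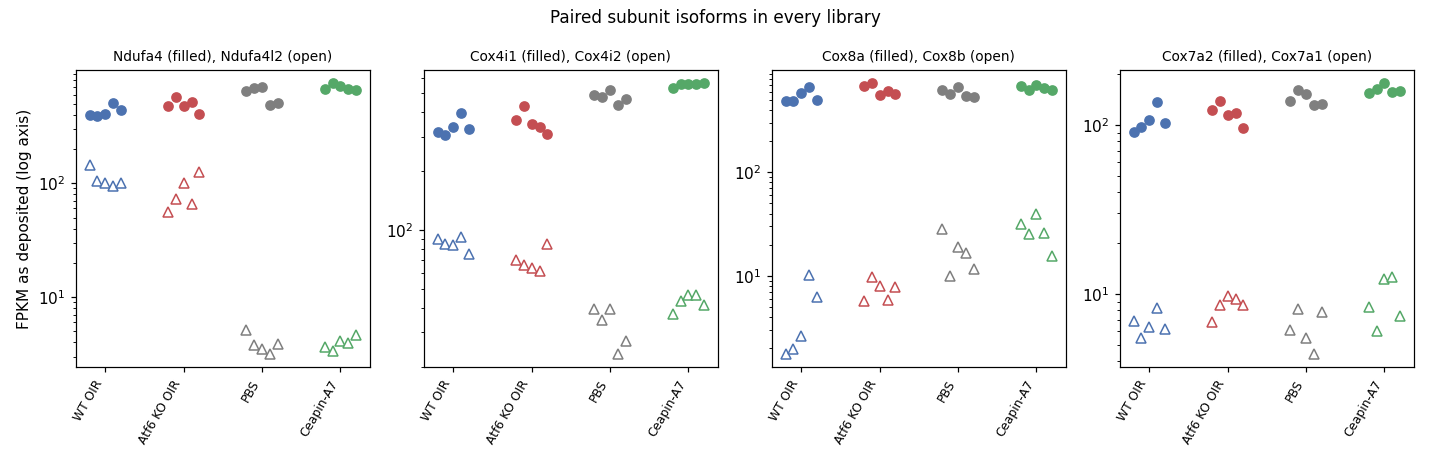
FPKM as deposited (log axis) of 4 pairs of subunit isoforms in every library, with the common form filled and the alternative form open, in Atf6+/+ OIR (WT OIR), Atf6-/- OIR (Atf6 KO OIR), PBS and Ceapin-A7 retinas. Ndufa4l2 lies between 55.7 and 144 in the OIR libraries and between 3.18 and 5.17 at P30, while Ndufa4 stays above 390 throughout.

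Complex V had 2 members higher with an unadjusted p of at most 0.05. Atp5o, the stalk subunit that holds the catalytic head, was at 182 ± 9.71 FPKM in Atf6+/+ and 210 ± 25.1 in Atf6-/- OIR (log2 fold change 0.22, SE 0.072; limma adjusted p = 0.36). Atp5l, which helps ATP synthase dimers form, was at 213 ± 32.0 and 253 ± 33.4 (log2 fold change 0.26, SE 0.098; limma adjusted p = 0.362). The alpha and beta subunits, Atp5a1 and Atp5b, had 0.052 and 0.12. The 3 genes for the identical c-ring subunit, Atp5g1, Atp5g2 and Atp5g3, had 0.13, 0.031 and 0.10.

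Which members passed in the OIR experiment rested on single libraries. The count with an unadjusted p of at most 0.05 was 44 without Atf6+/+ replicate 4 and 37 without Atf6-/- replicate 5, but 7 without Atf6+/+ replicate 2, 7 without Atf6-/- replicate 2, and 9 without Atf6+/+ replicate 1 or 3. All genes moved too: the share of members and of all genes with such a p was 51.2% and 24% without Atf6+/+ replicate 4, and 43.0% and 25.5% without Atf6-/- replicate 5. It was 8.14% and 9.24% without Atf6+/+ replicate 2, and 8.14% and 12% without Atf6-/- replicate 2, so the members were then under the background. Without Atf6+/+ replicate 1 or 3, the 9 of 86 members stood against 8.28% and 9.11% of all genes. Cytosolic ribosomal protein genes, 86 of 89 tested, deviated in the same direction as the members in every OIR library, though not always as far. The median deviation of the members from each gene's mean was 0.14 in Atf6+/+ replicate 4 and 0.21 in Atf6-/- replicate 2, where that of the ribosomal protein genes was 0.19 and 0.27. It was -0.18 in Atf6+/+ replicate 2, where that of the ribosomal protein genes was -0.22, but in Atf6+/+ replicate 1 the members were at -0.14 and the ribosomal protein genes at -0.027. The ribosomal protein genes had a median log2 fold change of 0.10, with 6 of 86 higher (6.98%, near the 6.94% of all genes) and 0 lower with an unadjusted p of at most 0.05. What moved both groups of genes together was not tested.

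Markers of other retinal and neighbouring cells also differed between the OIR groups. The 10 rod markers summed to 19618 to 22178 rescaled FPKM in Atf6+/+ and 20611 to 23838 in Atf6-/- OIR, the 6 cone markers to 764 to 926 and 845 to 980, and none was at 0. These rod markers had a median log2 fold change of 0.11, as did the cone markers, close to that of the members. The 8 pigment epithelium markers, none at 0, summed to 15 to 93.3 in Atf6+/+ and 56.4 to 276 in Atf6-/- OIR. They were highest in Atf6-/- replicate 2, as were the members. Of the 8, 5 (62.5%) were higher with an unadjusted p of at most 0.05, against 6.94% of all genes. The 12 lens fibre markers summed to 9.43 to 577 and 6.26 to 9.78, with 10 of 11 tested below 0. Of the 11, 9 (81.8%) were lower with an unadjusted p of at most 0.05, against 5.81% of all genes. The part of these cells in the members' difference was not tested.

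The second comparison asked how the same genes differed 24 h after Ceapin-A7. Members were higher in Ceapin-A7 than in PBS retinas across all 5 complexes, each by a small amount, but none passed the test after adjustment, and 2 PBS libraries carried much of the difference. Of 87 members 0 were called, as were 0 of 15408 genes (0%). At an unadjusted p of at most 0.05, 48 members (55.2%) were higher, against 5.04% of all genes, and 0 were lower, against 5.31% (10.4% of all genes in either direction). The median log2 fold change was 0.17 over the members and 0.00089 over all genes, and 85 of 87 members lay above 0, against 50.3% of all genes. The members have short transcripts, with a median length of 997.5 bases against 3380 for all genes, and across all genes the log2 fold change after Ceapin-A7 was lower for longer transcripts (Spearman -0.23, a description, since genes are not independent). The part of length in the members' difference was not tested.

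The sum over the 88 members was 15100, 16097, 16396, 13252 and 13840 rescaled FPKM in the 5 PBS libraries and 16330, 17356, 17159, 16615 and 16236 in the 5 Ceapin-A7 libraries. PBS replicates 4 and 5 were the lowest 2 of the 10, and PBS replicate 3 lay inside the Ceapin-A7 range. The means differed by 12.1%, and by 11.8%, 8.04%, 12.7%, 13.4% and 11.4% for complexes I to V. The members with an unadjusted p of at most 0.05 were 22 of 40 in complex I, 2 of 4 in complex II, 5 of 9 in complex III, 10 of 17 in complex IV and 9 of 17 in complex V.

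**Figure D3:**
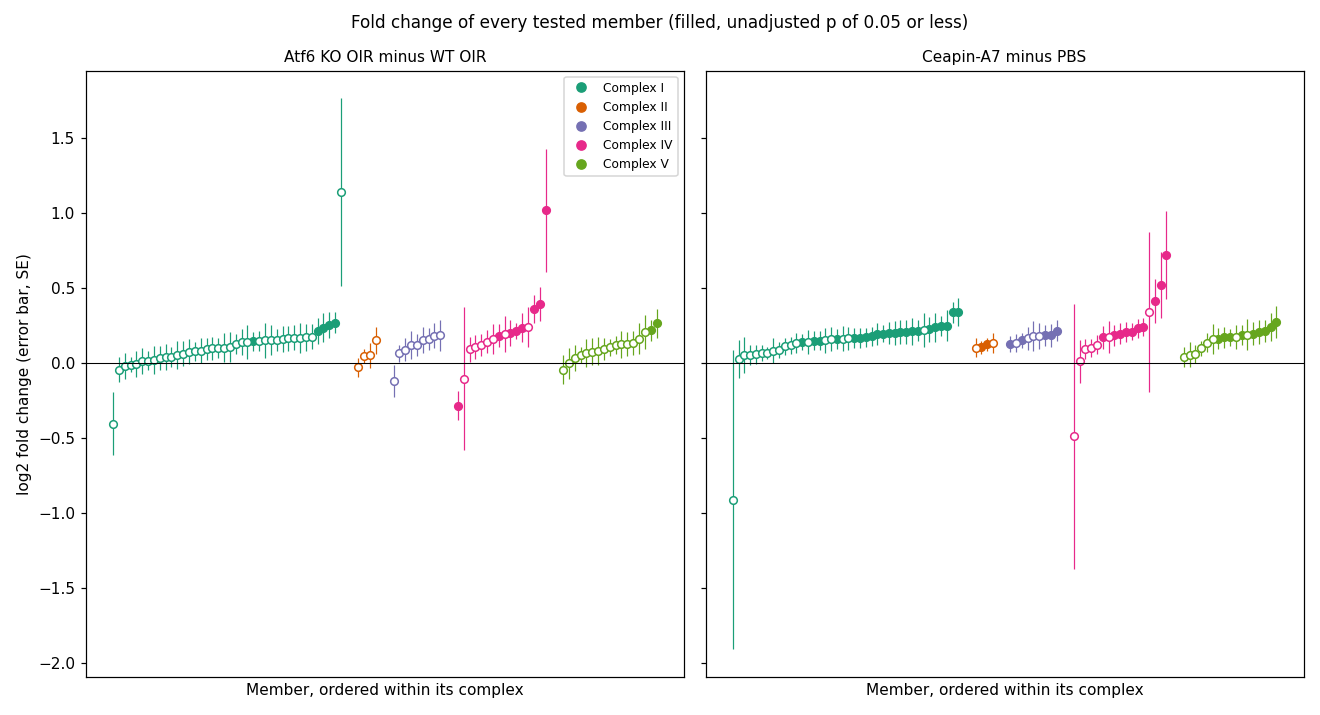
Log2 fold change (y axis, error bars are SE) of every tested member, ordered within its complex along the x axis, for Atf6-/- against Atf6+/+ OIR (left, 86 members) and Ceapin-A7 against PBS (right, 87 members). Filled points have an unadjusted p of at most 0.05, 15 on the left and 48 on the right, and no member has an adjusted p under 0.05.

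The photoreceptor markers moved with the members in the PBS group. The summed level of the 10 rod markers was 22538, 24251, 25104, 17521 and 16484 rescaled FPKM in PBS replicates 1 to 5 and between 22759 and 24718 in Ceapin-A7 libraries. None of the 10 was at 0 in any library. PBS replicates 4 and 5 were also lowest of the 10 libraries for the 6 cone markers (779 and 694, against 912 to 1061 in the others) and for the 5 Muller glia markers (673 and 872, against 1161 to 1827). The median deviation of the members was -0.25 and -0.19 in these 2 libraries, against -0.062 to 0.12 in the other 8. Ribosomal protein genes in them deviated by -0.024 and -0.027.

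Without PBS replicates 4 and 5, chosen after seeing the data, 8 of 87 members were higher with an unadjusted p of at most 0.05 and 0 were lower, against 2.61% of all genes higher (5.00% in either direction). The median log2 fold change of the members was then 0.074, and 76 of 87 lay above 0. The 8 members were Ndufb4c, Ndufa5, Ndufa9, Ndufs8, Cox4i1, Cox7c, Cox7b and Atp5md. Leaving out a single library also moved the count, to 23 without PBS replicate 4 (26.4% of members, 6.21% of all genes), to 25 without PBS replicate 5 (28.7% and 7.58%) and to 30 without Ceapin-A7 replicate 3 (34.5% and 7.86%). The part of photoreceptor content in the members' difference was not tested further. The lens fibre markers varied from 8.85 to 5115 in PBS and from 90.4 to 9178 in Ceapin-A7 libraries and the pigment epithelium markers from 114 to 239 and 91.4 to 191, with no separation of the groups.

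**Figure D4:**
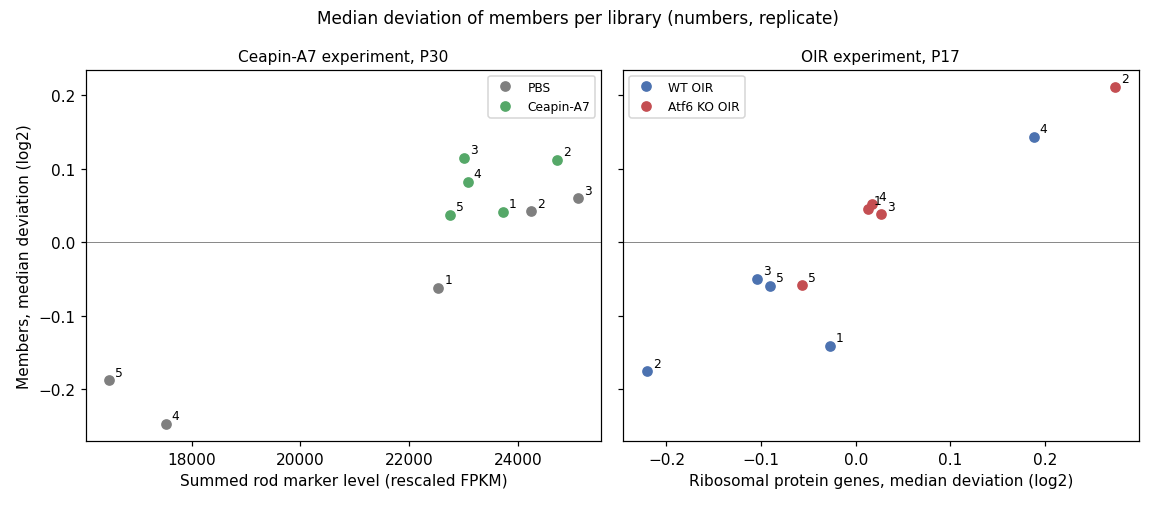
Median deviation of the members from each gene's mean (y axis, log2) in every library, numbered by replicate. On the left it is plotted against the summed rod marker level (rescaled FPKM) in the Ceapin-A7 experiment, where PBS 4 and 5 lie lowest on both axes, and on the right against the median deviation of ribosomal protein genes in the OIR experiment, where WT OIR 4 and Atf6 KO OIR 2 lie highest on both.

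There were 7 members whose Ceapin-A7 libraries all lay above all PBS libraries, against 0.785% of all genes, and 0 members whose libraries all lay below, against 0.688%. The 7 were Ndufb4c, Ndufa5, Ndufa9, Sdhd, Cox7c, Cox4i1 and Atp5md, each with an exact permutation p of 0.00794. Some other members with an unadjusted limma p of at most 0.05 had an exact permutation p above 0.05, among them Cox8b (0.0873) and Cox7a1 (0.103). Ndufb4c measured 93.4, 99.6, 102, 91.4 and 92.5 FPKM in PBS and 132, 105, 131, 127 and 111 in Ceapin-A7 retinas. Its smallest Ceapin-A7 value was close to its largest PBS value, and the log2 fold change of 0.34 (SE 0.070; limma adjusted p = 0.472) had the smallest p of any member. Its near-identical copy Ndufb4 did not show the pattern, at 159 ± 23.9 FPKM in PBS and 164 ± 20.2 in Ceapin-A7 retinas (log2 fold change 0.05, SE 0.12), so the division of reads between the copies is uncertain here too.

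Ndufa5 measured 118, 141, 148, 137 and 104 FPKM in PBS and 165, 169, 154, 162 and 163 in Ceapin-A7 retinas (log2 fold change 0.34, SE 0.091; limma adjusted p = 0.472). PBS replicates 1 and 5 were lowest here, and Ceapin-A7 libraries varied little. Ndufa9, an accessory subunit at the junction of the arms of complex I, was at 71.0 ± 4.59 and 81.1 ± 3.60 FPKM (log2 fold change 0.19, SE 0.056). Ndufs8, an iron-sulfur subunit of the core, was at 60.3 ± 5.11 and 71.5 ± 5.30 (log2 fold change 0.25, SE 0.067).

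In complex II, Sdhd measured 48.1, 47.7, 48.4, 45.4 and 46.8 FPKM in PBS and 49.3, 53.0, 54.4, 51.5 and 49.3 in Ceapin-A7 retinas. The groups lay side by side with a narrow gap, and the log2 fold change was 0.12 (SE 0.042; limma adjusted p = 0.472). Sdha had 0.10 (SE 0.044) and reached an unadjusted p of 0.05, and Sdhb and Sdhc had 0.10 and 0.13 and did not. In complex III, Uqcr10 was at 289 ± 25.5 and 335 ± 22.3 FPKM, Uqcrc2, a core protein, at 76.2 ± 4.75 and 84.4 ± 1.83, and Uqcrfs1 at 72.1 ± 6.94 and 81.5 ± 2.88. Their log2 fold changes were 0.21, 0.15 and 0.18, and all 9 members of complex III lay above 0.

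In complex IV, Cox4i1, the common form of subunit 4, measured 489, 480, 519, 437 and 470 FPKM in PBS and 529, 555, 560, 554 and 562 in Ceapin-A7 retinas. The log2 fold change was 0.21 (SE 0.056; limma adjusted p = 0.472). Cox7c measured 415, 473, 469, 421 and 444 FPKM in PBS and 502, 495, 513, 531 and 578 in Ceapin-A7 retinas, a log2 fold change of 0.24 (SE 0.061; limma adjusted p = 0.472). For both genes every Ceapin-A7 library lay above every PBS library, and both stayed with an unadjusted p of at most 0.05 without PBS replicates 4 and 5.

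Cox4i2 was higher after Ceapin-A7, the opposite of its direction in OIR. It measured 39.7, 34.7, 39.6, 23.3 and 27.0 FPKM in PBS and 37.3, 43.5, 46.4, 46.4 and 41.5 in Ceapin-A7 retinas (log2 fold change 0.41, SE 0.15; limma adjusted p = 0.472). PBS replicates 4 and 5 were again the lowest, and without them the log2 fold change was 0.16 (SE 0.073). Ndufa4l2 was at 3.90 ± 0.76 and 3.94 ± 0.51 FPKM, and Ndufa4 at 602 ± 99.7 and 693 ± 39.0. Mural markers summed to 30.1 to 39.3 in PBS and, apart from Ceapin-A7 replicate 3 at 66.6, to 33.3 to 35.5 in Ceapin-A7 libraries.

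Cox8b measured 28.3, 10.1, 18.9, 16.5 and 11.7 FPKM in PBS and 31.8, 25.5, 39.5, 25.8 and 15.4 in Ceapin-A7 retinas (log2 fold change 0.72, SE 0.29; limma adjusted p = 0.472), with broad overlap. Cox7a1 was at 6.39 ± 1.58 and 9.33 ± 2.96. Cox6a2, the muscle form of subunit 6a, measured 0.22, 0.11, 0.31, 11.16 and 0.31 FPKM in Ceapin-A7 and 0.64 to 1.29 in PBS retinas. In Ceapin-A7 replicate 4 the 12 skeletal muscle markers summed to 248 rescaled FPKM and none of them was at 0, against 4.66 to 7.17 in the other 9 libraries.

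Complex V had all 17 members above 0. Atp5md, a small subunit of the membrane part, measured 333, 367, 369, 307 and 379 FPKM in PBS and 392, 421, 396, 386 and 395 in Ceapin-A7 retinas (log2 fold change 0.18, SE 0.065; limma adjusted p = 0.472). Atp5g3 was at 390 ± 33.7 and 450 ± 27.6, Atp5pb, a peripheral stalk subunit, at 213 ± 13.7 and 239 ± 7.02, and Atp5g1 at 129 ± 18.3 and 151 ± 5.48. Their log2 fold changes were 0.21, 0.17 and 0.24. The alpha and beta subunits, Atp5a1 and Atp5b, had 0.096 and 0.13 and did not reach an unadjusted p of 0.05.

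The difference between the 2 effects was tested in a fit of all 20 libraries. Of 86 members, 0 differed at an adjusted p under 0.05, against 5 of 15628 genes (0.0320%), and 2 with an unadjusted p of at most 0.05 (2.33%, against 9.19%). These were Cox4i2, whose log2 fold change was lower in OIR than after Ceapin-A7 (difference -0.70, SE 0.19; limma adjusted p = 0.345), and Ndufb10, an accessory subunit of complex I (difference -0.15, SE 0.070; limma adjusted p = 0.536). The median difference over the members was -0.051. The experiments also differ in age, oxygen and injection.

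The 2 control groups gave the levels of the members at P17 after OIR and at P30 after injection of vehicle. Age, oxygen, injection and experiment differ together between them and cannot be told apart, so the levels are described without a test. On factors over all 20 libraries, the median difference, PBS minus Atf6+/+ OIR, was 0.14 on the log2 scale over 86 members and -0.0080 over all genes. For 28 members all 10 P30 libraries lay above all 10 P17 libraries (32.6%, against 14.8% of all genes), and for 9 they lay below (against 13.8%), which makes 43.0% of the members without overlap against 28.6% of all genes. The median difference was -0.024, 0.52, 0.27, 0.075 and 0.19 for complexes I to V, and all 4 members of complex II were among those without overlap.

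Ndufa4l2 was highest in the OIR groups, with 108 ± 20.7 rescaled FPKM in Atf6+/+ OIR and 84.6 in Atf6-/- OIR, and 3.91 ± 0.77 in PBS and 3.95 in Ceapin-A7 retinas. The 2 OIR groups did not differ beyond their spread, nor did the P30 groups. Cox4i2 followed the same order of ages, at 84.5 ± 6.16, 69.7, 33.1 ± 7.89 and 43.1. Ndufv3, a small subunit of the NADH-oxidising module, was at 257 ± 33.1 in Atf6+/+ OIR and 137 ± 9.13 in PBS, and Cox5b, at 338 ± 32.1 and 222 ± 22.4, was also lower at P30.

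Members higher at P30 included Cox8b (4.48 ± 3.51 in Atf6+/+ OIR and 17.1 ± 7.23 in PBS), Ndufb1 (71.9 ± 11.4 and 232 ± 28.4) and Ndufb4c (40.4 ± 3.56 and 96.1 ± 6.48). Ndufc2 stood at 88.4 ± 9.53 and 205 ± 20.6, Atp5k at 165 ± 25.9 and 356 ± 53.3 and Cox5a at 94.3 ± 5.57 and 184 ± 15.7. The c-ring genes differed among themselves, since Atp5g3 was 2.15 times as high in PBS as in Atf6+/+ OIR while Atp5g1 and Atp5g2 were at 1.06 and 0.96. In complex II, Sdha, Sdhc and Sdhd were 1.36, 1.52 and 1.72 times as high and Sdhb 0.764 times, so the 4 subunits of 1 enzyme did not keep 1 ratio.

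**Figure D5:**
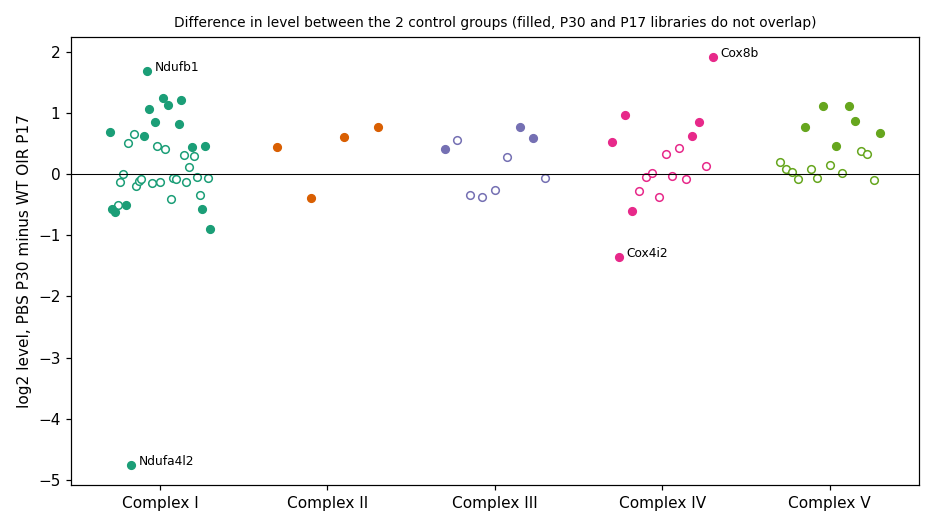
Difference in rescaled level between PBS at P30 and Atf6+/+ OIR (WT OIR) at P17 (y axis, log2) for the members of each complex, with 1 point a gene; members near or at 0 FPKM are not drawn. Filled points are genes whose 10 P30 libraries do not overlap the 10 P17 libraries. Ndufa4l2 stands at -4.76 and Cox8b at 1.91.

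Other genes of the pathway, from lists chosen with these data known, had 0 calls at an adjusted p under 0.05 in either experiment. Of 52 assembly factors, which build the complexes and are not part of them, 4 were higher and 1 lower with an unadjusted p of at most 0.05 in OIR, and 7 were higher and 0 lower after Ceapin-A7. The share higher was 7.69% in OIR, near the 6.94% of all genes, and 13.5% after Ceapin-A7, against 5.04%. Ttc19 and Nubpl led in OIR, with log2 fold changes of 0.20 and 0.27, and Sdhaf3 and Cox14 after Ceapin-A7, with 0.30 and 0.19. Of 17 genes of the tricarboxylic acid cycle, 2 (11.8%) were higher in OIR, Mdh2 (0.18) and Idh3a (0.18), and 6 (35.3%) after Ceapin-A7, with Pdhb (0.17) and Suclg2 (0.57) at the smallest p. Of 16 regulators of mitochondrial biogenesis, 1 (6.25%, near the background in both experiments) was higher in OIR, Polg2 (0.21), and after Ceapin-A7 Polg2 was higher (0.23) and Yy1 lower (-0.12). Ndufab1, an acyl carrier protein that is also a complex I subunit but lies outside the name rule, had 0.16 in OIR and 0.12 after Ceapin-A7, and was the only one of 7 carriers and factors outside the rule at that threshold, in OIR. The median log2 fold change of the assembly factors was 0.047 in OIR and 0.090 after Ceapin-A7, below that of the members in both.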

How the data were processed

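Whole retinas were profiled by stranded mRNA sequencing in 20 libraries, 5 in each of 4 groups taken from the sample labels. The deposited tables, 4 in all, hold FPKM per gene and library, which the authors computed from alignment and quantification to a GRCm39 reference. The submitters' processing notes name HISAT2 2.0.4, RSEM 1.2.18 and DESeq2 1.4.5. Read counts were not used here, and tables of 2 decimals gave only relative depth, which was 1 in every library but Ceapin-A7 replicate 3 (0.733), so absolute depth and counting intervals are unknown.

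Within each experiment, libraries were rescaled by median-of-ratios factors, genes with a mean FPKM above 0.1 were kept, and log2(FPKM + 0.1) was tested with limma 3.58.1 (empirical Bayes with a trend) in R 4.3.3, with Benjamini-Hochberg adjustment over all tested genes. A pseudocount understates fold changes of low genes. Means ± SD of single genes are FPKM as deposited, and sums, marker sums and levels across ages are rescaled FPKM. The difference of effects used all 20 libraries. An exact two-sided permutation test over 5 against 5 libraries was also run for single members, and its p is given only for some of them. The procedure was tested on simulated data. The members, marker lists and pathway lists were chosen with earlier results of these data known.

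Members were named by these rules: the 2 with the smallest p in each complex and experiment, members listed by role (catalytic subunits and isoforms), and the highest and lowest member of each complex. Some genes that these rules name are not reported here singly. Of the other lists, the 2 genes with the smallest p were named. Ndufa12, Ndufb4, members without overlap between groups, those left without PBS replicates 4 and 5 and those that differed most between ages were named after their values were seen.

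Alternatives were other pseudocounts, filters and scalings, limma without trend or with library weights, 1 fit of all libraries, a replicate block, a GC correction (GENCODE M21 on GRCm38, names only) and leaving out each library. Replicate numbers are shared between groups, but same-numbered libraries did not deviate together, with correlations from -0.26 to 0.21 in the OIR and -0.22 to 0.31 in the Ceapin-A7 experiment. No 2 libraries were identical.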

Additional observations from a re-analysis of the deposited data

Results flagged for a closer look

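Values were flagged where 1 library of a group of 5 lay far from the other 4, by a gap over 0.71 of the range of the group. This held for 16 of 196 groups examined (8.16%), where chance flags about 1 in 20.

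Atf6+/+ OIR replicate 4 was high for Cox6b1 (482.98 FPKM, others 341.15 to 379.04), Uqcr10 (239.04, others 184.96 to 193.4) and Uqcrc2 (75.65, others 58.02 to 62.98). Atf6-/- OIR replicate 2 was high for Cox6a1 (534.08, others 423.65 to 451.39), Cyc1 (84.61, others 73.67 to 76.76), the sum of complex III (1500.5 rescaled FPKM, others 1267.6 to 1306.3) and the sum of all members (15703, others 13157 to 13867). These 2 libraries also had the highest median deviations of ribosomal protein genes in their groups.

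Ceapin-A7 replicate 1 was low for Atp5a1 (276.58, others 298.4 to 303.89), Atp5b (638.58, others 681.5 to 693.66) and Cox4i1 (528.77, others 554.09 to 562.18), and had the highest sum of lens fibre markers. PBS replicate 5 was low for Atp5g2 (178.98, others 223.38 to 235.57). Ndufa4l2 was high in Atf6+/+ OIR replicate 1 (143.53, others 94.46 to 105.27).

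Cox6a2 stood at 11.16 FPKM in Ceapin-A7 replicate 4, where the other 4 lay between 0.11 and 0.31. The remaining values are single low readings in groups otherwise listed at 0: Cox7b2 at 0.14 in Atf6-/- OIR replicate 4, and Ndufs6b at 0.17 in Atf6+/+ OIR replicate 1 and at 0.2 in PBS replicate 4.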

How the results depend on the processing

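Other settings left 0 members called at an adjusted p under 0.05 in both experiments, except limma with library weights in OIR. That fit called 28 of 86 members, against 17.6% of all genes, and put 48 (55.8%, against 36.6%) with an unadjusted p of at most 0.05. That fit also gave 1 member whose effects differed at an adjusted p (1.16%, against 4.76% of all genes) and 5 at an unadjusted p (5.81% against 24.3%). The cause was not tested. The number whose effects differed at an unadjusted p was 4 on FPKM as deposited (4.65%, against 8.48% of all genes) and 1 on TPM (1.16% against 8.57%). It was 1 without a trend (1.16% against 9.24%) and 4 without PBS replicates 4 and 5 (4.65% against 7.87%). In the Ceapin-A7 experiment, leaving out PBS replicates 4 and 5 gave 8 members, and medians of 0.075, 0.092 and 0.068 for complexes III, IV and V. It also turned Atp5g2 (-0.035), Atp5o (-0.010), Cox7b2 (-0.11) and Ndufa4l2 (-0.081). Other sign changes were of small or low values: in OIR Atp5a1 (-0.017) and Atp5g2 (-0.028) under quantile normalization, Cox6a2 (0.23) with library weights and Atp5pb (-0.019) with the GC correction, and after Ceapin-A7 Cox6a2 (0.081) with a pseudocount of 1, Cox6b2 (-0.030) and Ndufa4l2 (-0.013) on TPM, and Cox6b2 (-0.015) and Ndufa4l2 (-0.0021) with library weights. The split of higher against lower members in OIR was 14 to 1, and 8 to 2 on FPKM as deposited. On those values 11.6% of members had an unadjusted p of at most 0.05, under the 12.1% of all genes. On TPM it was 14% against 11.7%, and in the main fit 17.4% against 12.7%.

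Leaving out each library gave 7 to 44 members with an unadjusted p of at most 0.05 in OIR, 23 to 63 after Ceapin-A7 and 1 to 4 whose effects differed. The last count was 1 without Atf6+/+ OIR replicate 2, 3 or 5, Atf6-/- OIR replicate 1, 3 or 4, PBS replicate 4 or Ceapin-A7 replicate 3 or 5, and 4 without PBS replicate 2 or 3. It made 1.16% to 4.65% of the members, against 6.44% to 16.7% of all genes in the same fits. In OIR the shares were 8.14% to 51.2% of members and 6.95% to 25.5% of all genes. After Ceapin-A7 they were 26.4% to 72.4% and 6.21% to 16.4%. Signs turned for Atp5g2 (-0.027 to 0.094), Cox6a2 (-0.46 to 0.21) and Sdhc (-0.062 to 0.0088) in OIR and for Cox6b2 (-0.12 to 0.10), Ndufa4l2 (-0.048 to 0.13) and Atp5g2 (-0.023 to 0.086) after Ceapin-A7. The median log2 fold change of the members stayed above 0 throughout, at 0.081 to 0.17 in OIR and 0.12 to 0.20 after Ceapin-A7.

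With the replicate number as a block, 10 members in OIR (11.6%, against 12.5% of all genes), 50 after Ceapin-A7 (57.5% against 10.4%) and 2 differences of effects (2.33% against 8.96%) had an unadjusted p of at most 0.05, and 0 were called. The numbers are shared names and not a pairing: 0 libraries in OIR and 1 in the Ceapin-A7 experiment correlated best with their own number. With the GC correction and the block the counts were 15 (17.4% against 8.79%) and 52 (59.8% against 10.8%). Depth is known only as a ratio, so no limit for low members such as Cox7b2 and Ndufs6b can be given.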
